A study of Mus musculus with 12 samples.

Results

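The T-cell receptor complex and its coreceptors were described in RNA sequenced from splenic B lymphocytes of WT, Eμ-Myc, and Eμ-Myc; PRPS2 KO mice, the last called the knockout group here. The set was fixed by name and holds 10 genes of the 24982 listed in the data: the CD3 chains Cd3d, Cd3e and Cd3g, the coreceptors Cd4, Cd8a and Cd8b1, and Thy1, Lat, Lck and Zap70. All 10 were listed in every library, and all 10 passed the filter on low values in each comparison. All mice were 6 weeks old, and each group had 4 libraries, labelled as biological replicates. The series design names C57BL/J6 as the WT strain. The Eμ-Myc transgene drives Myc from an immunoglobulin heavy-chain enhancer and is carried by the knockout group as well as by the Eμ-Myc group. The labels do not say how the B lymphocytes were isolated, whether PRPS2 was absent from all cells or from B cells alone, or which libraries were handled together. The series design asks which genes Myc deregulates in B cells, and whether loss of PRPS2 touches that programme.

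The T-cell receptor recognises peptides held by MHC molecules, and the CD3 chains carry its signal into the cell. CD4 binds MHC class II on helper T cells, and CD8, a pair of an alpha and a beta chain, binds MHC class I on cytotoxic T cells. The kinase LCK, held at the membrane with the coreceptors, phosphorylates the CD3 chains, ZAP70 docks there, and ZAP70 in turn phosphorylates the scaffold LAT. Thy1 is a surface glycoprotein of mouse T cells. These genes are used as markers of T cells, so in RNA from isolated B lymphocytes their level bears on which cells were in the sample.

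Every level given here is a scaled coverage: the deposited coverage of a gene divided by 1 scaling factor per library. Values are compared across libraries within a gene, and not between genes, because how coverage relates to transcript length is not given in the sources used here. The read number behind a value is unknown, so its error is the spread between the 4 libraries of a group. The summed coverage of a library ran from 1277305.5 to 1885768.9. Prps2, the targeted gene, stood at 97.9 to 140.0 in WT, at 198.5 to 287 in Eμ-Myc, and at 18.3, 17.01, 17.1 and 16.2 in knockout libraries 1 to 4. Myc itself stood at 226 to 346 in WT, at 1559 to 2302 in Eμ-Myc, and at 1099, 1718, 3017 and 3282 in knockout libraries 1 to 4. The summed coverage of 10 B-cell genes, among them Cd79a and Cd79b, ran from 8259 to 16150 over all 12 libraries, and none of the 10 was at 0 in any library.

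The knockout group fell into 2 pairs of libraries. With the T-cell genes left out, knockout libraries 1 and 2 were each nearest to the other, and so were libraries 3 and 4. The mean distance of a knockout library to the others of its group, as a root mean square log2 difference over genes, was 0.867 to 0.987, against 0.536 to 0.663 within WT and 0.432 to 0.532 within Eμ-Myc. Their mean distance to the WT libraries was 0.654 and 0.777 for knockout libraries 1 and 2, and 1.59 and 1.60 for libraries 3 and 4. To the Eμ-Myc libraries it was 0.671, 0.550, 0.812 and 0.839 for knockout libraries 1 to 4, so that libraries 2, 3 and 4 lay nearer to Eμ-Myc than to WT. Counts of called genes in the knockout group are therefore followed by the counts without each pair, while ratios between genes were tested over all 4 libraries. WT library 4 stood apart in the T-cell genes, as given below.

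The CD3 genes lie together on chromosome 9. On the GRCm38 build, which mm10 names too, GENCODE M21 places Cd3g at chr9:44969572-44980431 on the minus strand, Cd3d at chr9:44981786-44987339 on the plus strand and Cd3e at chr9:44998740-45009627 on the minus strand. The start sites of Cd3g and Cd3d are 1355 bp apart and point away from each other. Thy1 is on the same chromosome at chr9:44043384-44048579. Cd8b1, at chr6:71322788-71337494, ends 35933 bp before the start of Cd8a, at chr6:71373427-71379173, and Cd4 lies on the same chromosome at chr6:124864692-124888221. Lck is at chr4:129548344-129573641, Lat at chr7:126363824-126369570 and Zap70 at chr1:36761798-36782818. The microRNA genes Mir8119 and Mir7058 lie inside Lck and Lat on the same strand, so their reads may be counted in both.

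The RefSeq promoter table on GRCm38.p6 held 7 of the 10 genes, and not Cd4, Cd8b1 or Thy1. The 250 bases before the start site are printed for the 3 CD3 chains, because their coverage moved together over the libraries, and for both annotated starts of Lck, because Lck kept coverage in libraries where the CD3 chains were near 0. Capitals mark matches, on either strand, to 6 motifs of 6 letters: TGTGGT of RUNX factors, CAGCTG of E proteins, CACGTG of Myc, AGATAA of GATA factors, AGGAAG of ETS factors and CTTTGA of TCF and LEF factors. No match overlaps another. Sequences run 5′ to 3′ on the strand of the gene, from chr9:44981536-44981785 (plus) for Cd3d, chr9:45009612-45009861 (minus) for Cd3e, chr9:44980432-44980681 (minus) for Cd3g, chr4:129573642-129573891 (minus) for the upstream start of Lck and chr4:129558373-129558622 (minus) for its downstream start.
Cd3d: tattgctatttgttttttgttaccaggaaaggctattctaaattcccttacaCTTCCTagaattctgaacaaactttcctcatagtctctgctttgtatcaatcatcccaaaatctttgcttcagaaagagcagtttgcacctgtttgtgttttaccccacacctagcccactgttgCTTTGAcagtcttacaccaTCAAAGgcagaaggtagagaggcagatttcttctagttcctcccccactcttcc
Cd3e: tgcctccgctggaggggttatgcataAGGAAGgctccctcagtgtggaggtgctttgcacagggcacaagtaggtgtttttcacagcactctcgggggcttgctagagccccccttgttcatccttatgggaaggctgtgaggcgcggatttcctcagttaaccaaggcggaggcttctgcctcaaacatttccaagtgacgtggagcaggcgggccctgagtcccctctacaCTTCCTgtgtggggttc
Cd3g: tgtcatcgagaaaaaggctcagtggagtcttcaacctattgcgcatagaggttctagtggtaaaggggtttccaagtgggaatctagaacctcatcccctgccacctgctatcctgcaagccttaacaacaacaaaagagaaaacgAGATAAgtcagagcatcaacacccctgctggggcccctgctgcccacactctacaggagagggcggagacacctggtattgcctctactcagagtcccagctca
Lck, upstream start: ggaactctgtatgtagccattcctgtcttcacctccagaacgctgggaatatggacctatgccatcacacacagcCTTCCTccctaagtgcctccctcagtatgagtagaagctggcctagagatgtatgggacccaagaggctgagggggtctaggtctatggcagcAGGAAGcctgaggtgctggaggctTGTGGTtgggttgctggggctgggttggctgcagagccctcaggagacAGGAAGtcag
Lck, downstream start: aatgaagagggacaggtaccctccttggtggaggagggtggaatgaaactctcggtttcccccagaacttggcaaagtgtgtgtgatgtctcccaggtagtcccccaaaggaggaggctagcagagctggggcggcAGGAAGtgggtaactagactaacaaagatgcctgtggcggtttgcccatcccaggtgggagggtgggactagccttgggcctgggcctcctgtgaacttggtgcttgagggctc

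The ETS letters were found in the windows of Cd3d, Cd3e and both starts of Lck, and in 29.5% of all 32851 promoters of that length. The TCF and LEF letters were found at 2 places in Cd3d and in 13.8% of all promoters, and the GATA letters once in Cd3g and in 9.99% of all promoters. The RUNX letters were found at the upstream start of Lck and in 14.0% of all promoters. Neither CACGTG, held by 6.02% of all promoters, nor CAGCTG, held by 4271 of the 32851, was in these 5 windows. Of the windows not printed, that of Lat held CACGTG, at -166 from its start site, and those of Cd8a and Zap70 did not. The 3 CD3 windows thus had no motif of the 6 in common. A match of letters is a description of the sequence and not a binding site.

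Among the CD3 chains, Cd3e, which codes for CD3 epsilon, had a scaled coverage of 79.7, 39.9, 47.7 and 285 in WT libraries 1 to 4, of 9.46, 10.01, 7.81 and 6.87 in the Eμ-Myc libraries, and of 48.5, 71.8, 0.555 and 0.666 in the knockout libraries. WT and Eμ-Myc did not overlap, knockout libraries 1 and 2 lay within the WT range, and knockout libraries 3 and 4 lay below every Eμ-Myc library. Cd3d, the delta chain, stood at 102, 53.6, 66.3 and 325 in WT, at 12.4, 13.8, 15.6 and 9.69 in Eμ-Myc, and at 59.7, 75.6, 0.555 and 1.33 in the knockout group. Cd3g, the gamma chain, stood at 136.5, 75.4, 98.9 and 482 in WT, at 16.6, 17.4, 23.2 and 14.4 in Eμ-Myc, and at 85.1, 115, 2.11 and 2.22 in the knockout group. The order of the libraries was alike for the 3 chains: WT library 4 was the highest of all 12, and knockout libraries 3 and 4 were the lowest. Levels this close to 0 make the log2 differences of knockout libraries 3 and 4 depend on the pseudocount.

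Of the coreceptors, Cd4 stood at 42.0, 23.6, 36.6 and 149.9 in WT, at 7.85, 6.37, 8.73 and 4.51 in Eμ-Myc, and at 21.5, 33.9, 0.888 and 0.444 in the knockout group. Knockout library 1 lay just below the WT range for Cd4, and library 2 lay within it. Cd8a, the alpha chain of CD8, stood at 151, 108, 127 and 346 in WT, at 51.4, 36.9, 37.8 and 33.5 in Eμ-Myc, and at 129.8, 93.5, 6.44 and 5.44 in the knockout group. For Cd8a it was knockout library 2 that lay below the WT range, and library 1 lay within it. Cd8b1, the beta chain, stood at 119, 53.0, 79.6 and 299 in WT, at 12.1, 10.2, 9.76 and 6.20 in Eμ-Myc, and at 90.9, 69.3, 0.222 and 0.222 in the knockout group. Both helper and cytotoxic markers were thus at or below 6.44 in knockout libraries 3 and 4.

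Lat, the scaffold, followed the CD3 chains, with 147, 63.7, 77.1 and 485 in WT, 15.1, 18.1, 18.1 and 10.9 in Eμ-Myc, and 70.9, 94.5, 2.66 and 1.89 in the knockout group. The other 3 genes kept a level in knockout libraries 3 and 4 that the CD3 chains did not. Thy1 stood at 186, 89.9, 116 and 538 in WT, at 24.2, 25.2, 26.2 and 18.4 in Eμ-Myc, and at 114, 124, 19.8 and 18.2 in the knockout group. In Thy1, knockout library 3 lay inside the Eμ-Myc range and library 4 just below it. The kinase gene Lck stood at 453.5, 274, 324 and 1279 in WT, at 93.5, 82.4, 75.8 and 69.6 in Eμ-Myc, and at 291, 336.5, 45.0 and 46.9 in the knockout group. Zap70 stood at 123.5, 56.0, 68.1 and 354 in WT, at 28.2, 30.1, 27.5 and 26.9 in Eμ-Myc, and at 82.7, 103, 23.0 and 22.2 in the knockout group. As a percentage of the Eμ-Myc mean, knockout libraries 3 and 4 held 84.1% and 77.4% of Thy1, 81.5% and 78.7% of Zap70 and 56.0% and 58.4% of Lck. The same libraries held 6.50% and 7.80% of Cd3e and 2.32% and 2.32% of Cd8b1.

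**Figure D1:**
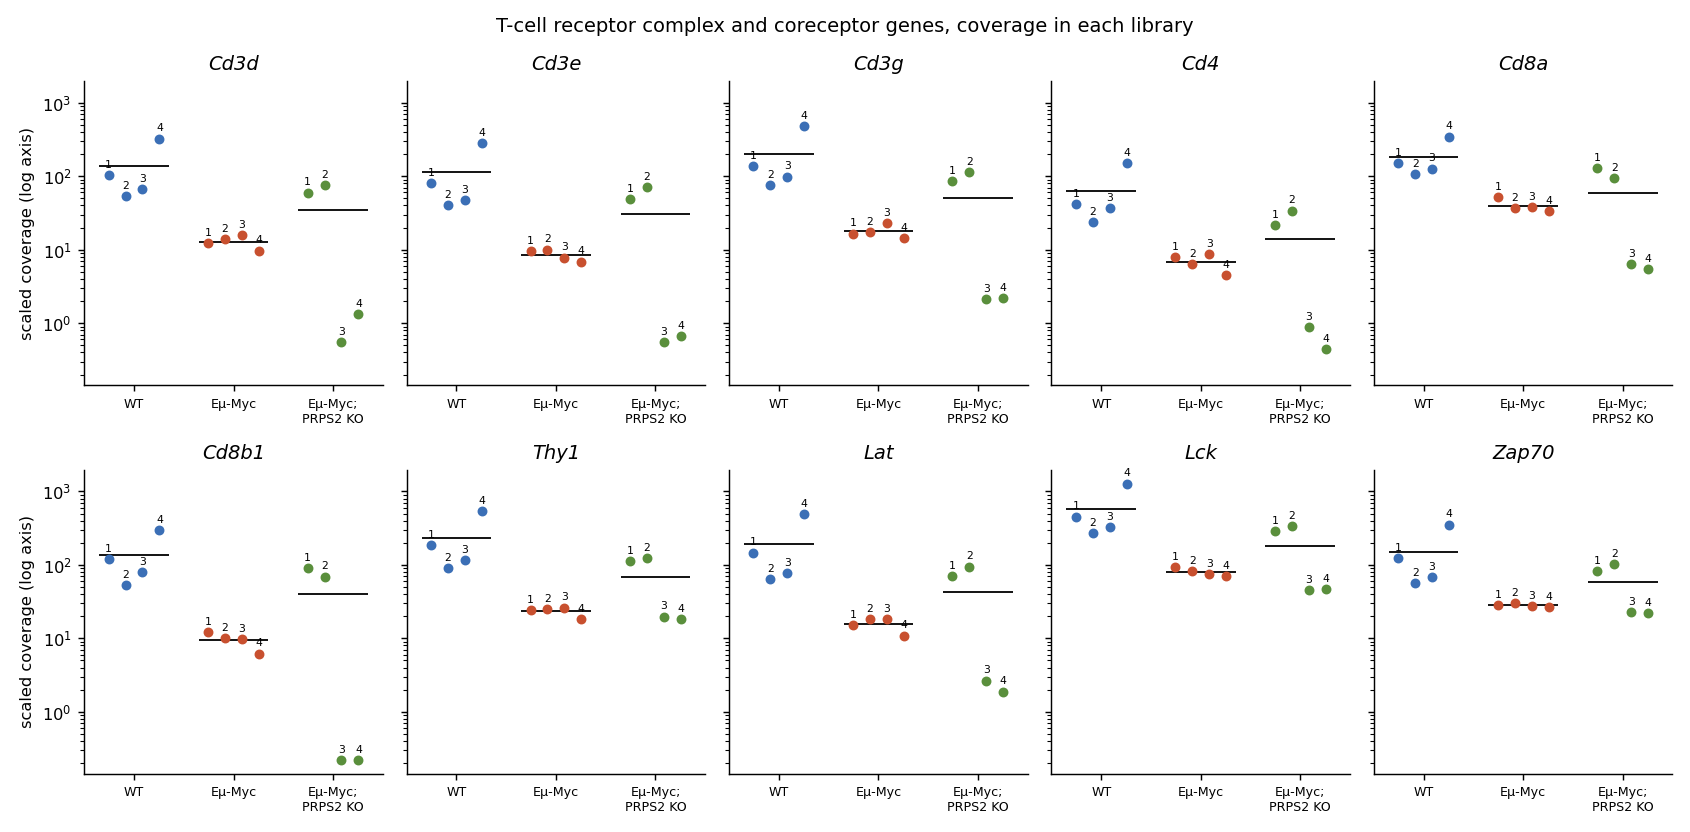
Scaled coverage of each of the 10 genes in each of the 12 libraries, on a log axis, with 1 point per library numbered within its group and a bar at the group mean. WT library 4 is the highest point for all 10 genes, the 4 Eμ-Myc libraries sit close together below WT, and the knockout libraries lie in 2 pairs, with libraries 1 and 2 above every Eμ-Myc library.

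WT library 4 was the highest and WT library 2 the lowest of their group for 10 of 10 genes, and WT library 4 stood 2.69 to 5.11-fold above the mean of the other WT libraries. In Eμ-Myc, library 4 was the lowest for 10 of 10 genes, while the highest library varied from gene to gene. The highest library of a group exceeded the lowest by a median over the 10 genes of 6.20-fold in WT, 1.57-fold in Eμ-Myc and 52.3-fold in the knockout group. Knockout libraries 1 and 2 each lay within the WT range for 9 of 10 genes and above the Eμ-Myc range for 10 of 10. Knockout library 3 lay below the Eμ-Myc range for 9 of 10 genes, library 4 did so for 10 of 10, and both were below the WT range for 10 of 10.

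In Eμ-Myc against WT, the comparison that asks what the transgene changes, all 10 genes fell. The drop was largest in Cd8b1, which fell by 3.50 on the log2 scale (SE 0.475, limma adjusted p = 0.000329). It was smallest in Zap70, which fell by 1.99 (SE 0.499, limma adjusted p = 0.00866). The log2 fold change was -3.19 (SE 0.542) for Cd3e, -2.99 (SE 0.498) for Cd3d, -3.04 (SE 0.507) for Cd3g and -3.12 (SE 0.567) for Lat. It was -2.77 (SE 0.505) for Cd4, -2.92 (SE 0.485) for Thy1, -2.57 (SE 0.424) for Lck and -2.04 (SE 0.335) for Cd8a. The adjusted limma p of these 8 genes ran from 0.000952 to 0.00171. Over all 12723 genes tested, 24.7% were called lower, and the median log2 fold change was -0.01, against -2.96 over the 10 genes. The 4 Eμ-Myc libraries lay below the 4 WT libraries for 10 of 10 genes, as they did for 22.8% of all genes tested. Each log2 fold change is on the scale of log2(scaled coverage + 0.5), with n = 4 libraries a group.

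The WT mean was a median of 10.2-fold above the Eμ-Myc mean over the 10 genes, and 5.65-fold without WT library 4. With that library left out of the fit, 10 of 10 genes were still called lower, with a median log2 fold change of -2.42, where 23.6% of all genes tested were called lower. When all 12 libraries shared 1 estimate of the spread, which then took in the knockout group, 4 of 10 were called lower (Thy1, Lat, Lck and Zap70), where 16.3% of all genes tested were and 42.9% were called in either direction. In bulk RNA, fewer T cells in a sample and less T-cell RNA per cell cannot be told apart, here and in each result that follows. Whether cells other than T cells gave part of the coverage of the 10 genes was not tested.

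**Figure D2:**
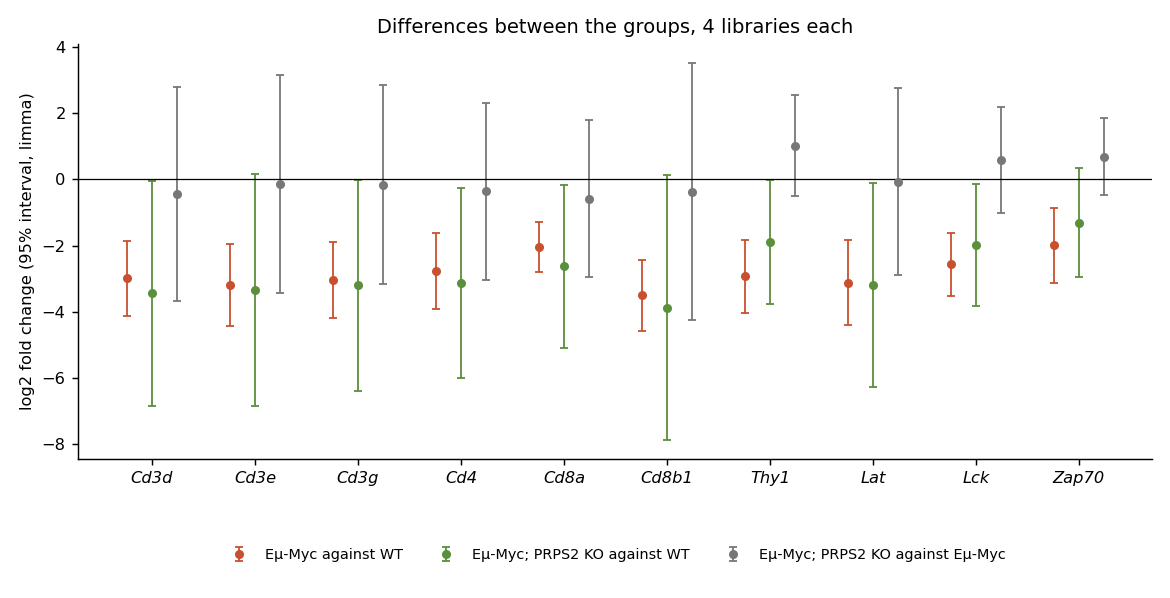
Log2 fold changes of the 10 genes in the 3 comparisons, from log2(scaled coverage + 0.5), with points for the estimates and bars for the 95% confidence intervals. In Eμ-Myc against WT all 10 intervals lie below 0, while in the knockout group against Eμ-Myc all 10 span 0 and are wider.

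In the knockout group against Eμ-Myc, the comparison that asks what loss of PRPS2 changes when Myc is raised, none of the 10 genes passed the limma test, and none had an unadjusted p under 0.05. Of all 12551 genes tested, 0.00797% were called, which is 1 gene. The estimates were below 0 for 7 genes, from -0.07 (Lat) to -0.58 (Cd8a), and above 0 for Thy1 (1.02), Zap70 (0.69) and Lck (0.59). The 95% confidence interval of Cd3e ran from -3.44 to 3.16 and that of Thy1 from -0.50 to 2.54, so that large differences in either direction lie within the error for the CD3 chain. The groups overlapped for 10 of 10 genes, while 1.53% of all genes tested did not overlap. The mean of the group describes none of its libraries: the 10 genes stood at a median of 4.59-fold the Eμ-Myc mean in knockout library 1 and 5.58-fold in library 2, against 0.146-fold in library 3 and 0.122-fold in library 4.

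Without knockout libraries 1 and 2, 8 of the 10 genes were called lower than in Eμ-Myc, with a median log2 fold change of -2.64, where 16.4% of all genes tested were called lower. Thy1, at -0.29, and Zap70, at -0.31, were the 2 that did not pass. Without knockout libraries 3 and 4, 10 of 10 were called higher, with a median of 2.34, where 2.26% of all genes tested were called higher. These pairs were set apart after their values had been seen, so both counts describe the libraries and are no test of the genotype.

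In the knockout group against WT, all 10 estimates were below 0, with a median log2 fold change of -3.16, but none of the 10 passed the limma test. The adjusted p ran from 0.0811 (Cd4) to 0.167 (Zap70), and 7 of 10 had an unadjusted p under 0.05. Of the 12692 genes tested, 29.3% were called, 9.6% as lower, and the groups did not overlap for 37.1%, a state that none of the 10 genes was in. The estimate was -3.87 (SE 1.74) for Cd8b1, -3.33 (SE 1.53) for Cd3e and -1.90 (SE 0.815) for Thy1. Without knockout libraries 1 and 2, 10 of 10 were called lower with a median of -5.53, where 34.4% of all genes tested were called lower. Without knockout libraries 3 and 4, none was called, the 10 adjusted limma p ran from 0.505 to 0.84, the median was -0.59, and 2.37% of all genes tested were called lower. Leaving out knockout library 1 alone gave 8 genes called lower, where 23.5% of all genes tested were called lower, and leaving out library 2 alone gave 6, where 13.4% were. The 3 comparisons share groups in pairs, so their fold changes are not independent of each other.

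A ratio of coverage between 2 genes of the same library does not depend on its scaling. For the tests, 0.5 was added to the scaled coverage of both genes before the log2 ratio was taken. These log2 ratios of Cd4 to Cd8a, Cd8b1 to Cd8a, and Thy1, Lck and Zap70 to Cd3e were compared in the 3 pairs of groups, in 15 two-sided exact permutation tests. Each test enumerated 70 arrangements of the 8 libraries, and 0.0286 is the lowest p it can give. In Eμ-Myc the ratio of Zap70 to Cd3e was 2.98, 3.01, 3.53 and 3.92 in libraries 1 to 4, and in WT it was 1.55, 1.40, 1.43 and 1.24. The groups did not overlap, and the tested log2 difference was 1.20 (exact permutation p = 0.0286, adjusted over the 15 tests p = 0.107). Lck to Cd3e was 5.69, 6.85, 6.79 and 4.49 in WT and 9.89, 8.24, 9.71 and 10.1 in Eμ-Myc, with a tested log2 difference of 0.62, and Thy1 to Cd3e differed by 0.27 on that scale. Both of these ratios also did not overlap between WT and Eμ-Myc, with the same p and adjusted p as Zap70 to Cd3e. Zap70 and Lck were thus less far below WT than Cd3e was, but no ratio passed the adjustment. With 0.0286 as the lowest p, an adjusted p under 0.05 would need most of the 15 tests to reach it. Failing the adjustment therefore does not show that a ratio was alike between the groups.

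The 2 chains of CD8 differed in the same comparison. Cd8b1 to Cd8a was 0.787, 0.491, 0.629 and 0.866 in WT and 0.236, 0.277, 0.258 and 0.185 in Eμ-Myc, without overlap (tested log2 difference -1.46, exact permutation p = 0.0286, adjusted p = 0.107). In knockout libraries 1 and 2 it was 0.700 and 0.741, inside the WT range, and in libraries 3 and 4 it was 0.0345 and 0.0408, below the Eμ-Myc range. Cd8a can be made without Cd8b1, as an alpha-alpha pair found on some dendritic cells and other lymphocytes. The summed coverage of 8 dendritic-cell genes was 203 to 287 in WT, 92.8 to 156 in Eμ-Myc, 206.5 and 163 in knockout libraries 1 and 2, and 30.3 and 23.2 in libraries 3 and 4. The list did not move as one in Eμ-Myc against WT. Xcr1 (log2 fold change 0.17, limma adjusted p = 0.616) and Clec9a (-0.18, 0.554), markers of the dendritic cells that carry CD8 alpha, did not pass. Zbtb46 did not pass either (-0.57, limma adjusted p = 0.0758). Without knockout libraries 1 and 2, all 8 were called lower than in Eμ-Myc, where 16.4% of all genes were. Among them were Xcr1 (-1.37, limma adjusted p = 0.0123) and Clec9a (-1.51, 0.00531). Without libraries 3 and 4, 1 of the 8 was called higher, where 2.26% of all genes were. The part of dendritic cells in the ratio was not tested. Cd4 to Cd8a was 0.278, 0.219, 0.289 and 0.434 in WT and 0.153, 0.173, 0.231 and 0.135 in Eμ-Myc, with overlap (tested log2 difference -0.73, exact permutation p = 0.0571, adjusted p = 0.143). In knockout libraries 1 to 4 it was 0.166, 0.363, 0.138 and 0.0816, with library 2 alone inside the WT range.

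Within the knockout group the same ratios separated the pairs of libraries. Zap70 to Cd3e was 1.70 and 1.43 in libraries 1 and 2 and 41.4 and 33.3 in libraries 3 and 4. Lck to Cd3e was 5.99 and 4.69 in the first pair and 81.0 and 70.5 in the second, and Thy1 to Cd3e was 2.35 and 1.73 against 35.6 and 27.3. In libraries 3 and 4 these ratios are to a Cd3e coverage of 0.555 and 0.666, and are as coarse as those values. Cd3d to Cd3e stayed between 1.00 and 2.00 over all 12 libraries, although Cd3e itself ranged from 0.555 to 285. It was 1.00 and 2.00 in knockout libraries 3 and 4, and is as coarse there as the other ratios. Cd3g to Cd3e was 1.69 to 2.07 in WT and 1.74 to 2.97 in Eμ-Myc. In knockout libraries 1 to 4 the ratio of Cd3g to Cd3e was 1.75, 1.60, 3.80 and 3.33. Lat to Cd3e ran from 1.32 to 4.80, and was highest in knockout library 3. None of the 10 tests of the knockout group against Eμ-Myc or WT passed, with adjusted exact permutation p from 0.143 to 0.686. The limit on the adjustment given above holds for them too.

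**Figure D3:**
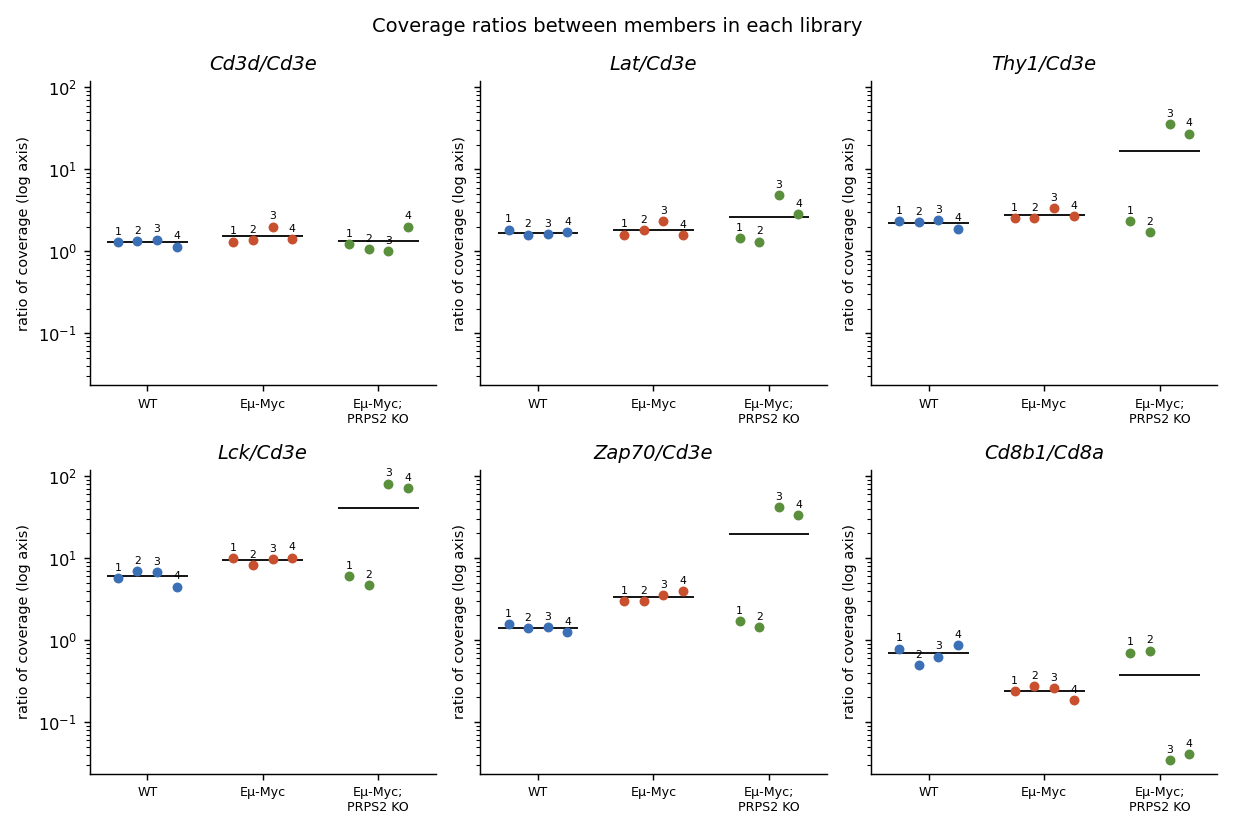
Ratios of scaled coverage between pairs of the 10 genes in each library, on a log axis shared by the 6 panels, with points numbered by library within the group and a bar at the group mean. Cd3d to Cd3e stays between 1.00 and 2.00 in all 12 libraries, while the ratios of Thy1, Lck and Zap70 to Cd3e are highest in knockout libraries 3 and 4.

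The other genes of T-cell receptor signalling were read from a list of 20, of which 17 were tested. Trac, Trbc1 and Trbc2, the constant regions of the receptor itself, were not analysed here. In Eμ-Myc against WT 16 of the 17 fell, where 24.7% of all genes tested did, with a median log2 fold change of -2.25 over the list. The 5 with the smallest adjusted p were Grap2, an adaptor that binds LAT (log2 fold change -2.25, SE 0.211, limma adjusted p = 2.92e-05), Tespa1 (-1.89, SE 0.192), Sh2d2a (-2.35, SE 0.308), Skap1 (-3.05, SE 0.513) and Themis, needed for thymocyte selection (-3.37, SE 0.571). Rasgrp1, an activator of Ras that B cells also use, was the exception, at 58.2 to 111 in WT and 52.5 to 83.1 in Eμ-Myc (log2 fold change -0.25, limma adjusted p = 0.321). In the knockout group Rasgrp1 stood at 75.5, 88.4, 76.7 and 80.2, so that it did not separate the pairs of libraries, while Themis stood at 14.3 and 15.2 in libraries 1 and 2 and was listed at 0 in libraries 3 and 4. Within WT, Grap2 (128) and Tespa1 (32.4) were lowest in library 1, unlike the 10 genes. Sh2d2a, Skap1 and Themis were lowest in WT library 2, as the 10 genes were.

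Of 20 surface and lineage genes of T cells, 19 fell in Eμ-Myc against WT, against the same 24.7%, with a median log2 fold change of -2.35. The 5 with the smallest adjusted p were Ccr7, a homing receptor that B cells share (log2 fold change -1.24, SE 0.138, limma adjusted p = 7.7e-05), S1pr1, the receptor for exit from lymphoid tissue (-1.32, SE 0.196), Ms4a4b (-2.79, SE 0.420), the costimulatory receptor gene Cd28 (-3.02, SE 0.522) and Cd27 (-2.81, SE 0.481). Cd2, an adhesion receptor present on mouse B cells too, was the exception, with a log2 fold change of -0.45 (limma adjusted p = 0.0534). Against Eμ-Myc, none of the 17 signalling genes and none of the 18 surface and lineage genes tested passed in the knockout group, and none had an unadjusted p under 0.05 in the limma fit. As for the 10 genes, these counts differ between the pairs of libraries. Without knockout libraries 1 and 2, 10 of 15 signalling genes and 15 of 17 surface and lineage genes tested were called lower, where 16.4% of all genes were. Without libraries 3 and 4, 13 of 17 and 13 of 18 were called higher, where 2.26% of all genes were. Against WT, 2 of 17 signalling genes and 2 of 20 surface and lineage genes were called lower in the knockout group. Both shares were close to the 9.6% of all genes tested that were called lower. The called genes were Tespa1 (log2 fold change -2.03, limma adjusted p = 0.0334), Grap2 (-2.32, 0.0413), Ccr7 (-1.32, 0.0147) and S1pr1 (-1.47, 0.0223). Without knockout libraries 1 and 2, 16 of 17 signalling genes and 18 of 20 surface and lineage genes were called lower than in WT, these 4 among them, where 34.4% of all genes were. Without libraries 3 and 4, 1 of each list was called lower, against 2.37% of all genes: Tespa1 (-1.0, limma adjusted p = 0.0356) and Ccr7 (-0.91, 0.0171), while Grap2 (-0.98, 0.0506) and S1pr1 (-0.93, 0.0568) did not pass. The next by adjusted p did not pass: Sit1 (-1.04, 0.0507), Sh2d2a (-2.11, 0.0762) and Trat1 (-2.56, 0.0986) on the signalling list, and Cd2 (-0.67, 0.0511), Tnfrsf4 (-1.44, 0.0569) and Ms4a4b (-3.10, 0.0818) on the other, all from limma. Ccr7 stood at 377 to 521 in WT, at 167 to 215 in Eμ-Myc, and at 221, 262, 123 and 150.1 in the knockout group, so its knockout libraries were all below WT, unlike any of the 10 receptor genes. Within WT, Ccr7 (377) and S1pr1 (133) were lowest in library 1, while Ms4a4b, Cd28 and Cd27 were lowest in library 2, as the 10 genes were.

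Of the markers of other cells, some moved with the 10 genes and others did not. All 10 NK-cell genes fell in Eμ-Myc against WT, where 24.7% of all genes tested did, with a median log2 fold change of -2.11, and their summed coverage was 447 to 1801 in WT, 121 to 301 in Eμ-Myc, 729 and 556 in knockout libraries 1 and 2, and 31.1 and 28.6 in libraries 3 and 4. Of 8 dendritic-cell genes 5 fell in the same comparison: Itgax, Flt3, Cd209a, Siglech and Clec10a, named after their values were seen. None of 10 myeloid genes passed there, nor had any an unadjusted p under 0.05, with sums of 8663 to 25590 in WT and 5940 to 17370 in Eμ-Myc. The myeloid sum was 16120 and 11990 in knockout libraries 1 and 2 and 3162 and 1507 in libraries 3 and 4. Of 5 platelet genes 1 fell in Eμ-Myc against WT, a share close to the 24.7% of all genes, and 4 in the knockout group against WT, where 9.6% of all genes did. Leaving out knockout libraries 1 and 2 gave 5, where 34.4% of all genes tested were called lower. Leaving out libraries 3 and 4 gave 0, with 0 at an unadjusted limma p under 0.05, where 2.37% of all genes were called lower. The platelet sum was 258, 396, 373 and 88.6 in WT libraries 1 to 4, lowest where the 10 genes were highest. Of 8 erythroid genes none passed in any comparison, with 2 at an unadjusted p under 0.05 in Eμ-Myc against WT. Without knockout libraries 1 and 2, 1 of the 8 erythroid genes was called higher than in WT, and without libraries 3 and 4 none was, with 1 at an unadjusted limma p under 0.05. The share of all genes called higher in these fits is not given here, so the count is no result about the erythroid list. No gene of the NK, dendritic-cell, myeloid, erythroid or platelet lists was at 0 in any library. The gamma-delta T-cell list had 3 genes in the data, of which Cd163l1 fell in Eμ-Myc against WT (log2 fold change -1.68, limma adjusted p = 0.00199). The other two, Sox13 (0.37, 0.25) and Blk (-0.30, 0.293), which is also on the B-cell list, did not pass. Without knockout libraries 1 and 2, the 3 genes went both ways in the knockout group against WT. Cd163l1 was called lower (-2.51, limma adjusted p = 0.00191), and 1 of 3 is near the 34.4% of all genes called lower there. Sox13 was called higher (1.43, limma adjusted p = 0.00781), and Blk did not pass (-0.80, 0.0573). The part of these cells in the results on the 10 genes was not tested.

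Of 10 B-cell genes, 1 fell in Eμ-Myc against WT, where 24.7% of all genes tested did. In the knockout group against WT 1 of the 10 fell, a share close to the 9.6% of all genes. The latter count was 1 without knockout libraries 1 and 2, where 34.4% of all genes tested were called lower. It was 0 without libraries 3 and 4, where 2.37% of all genes were called lower. In that fit 0 of the 10 B-cell genes had an unadjusted limma p under 0.05. The B-cell sum was 8452, 16150, 13350 and 8259 in WT libraries 1 to 4, lowest in library 4, where the 10 T-cell genes were highest, and highest in library 2, where they were lowest. In the knockout group it stayed between 9300 and 9926. Per library, the mean coverage of the 10 genes as a percentage of the mean of the B-cell list was 18.2%, 5.18%, 7.80% and 55.0% in WT, 2.53%, 2.03%, 2.48% and 1.74% in Eμ-Myc, and 10.7%, 11.5%, 1.08% and 1.00% in the knockout group. Its mean in Eμ-Myc was 10.2% of the WT mean, and its mean in the knockout group 28.1%, or 51.4% for knockout libraries 1 and 2 and 4.83% for libraries 3 and 4. WT library 4 sets much of that WT mean: against the mean of WT libraries 1 to 3, Eμ-Myc stood at 21.1% and the knockout group at 58.2%, with knockout libraries 1 and 2 at 106.4% and libraries 3 and 4 at 9.999%. The choice of genes matters in knockout libraries 3 and 4. As a percentage of the mean of the 4 WT libraries, they stood at 5.0% and 4.65% with all 10 genes. With the CD3 chains and coreceptors only, they stood at 1.28% and 1.16%. The T-cell to B-cell percentage serves to compare libraries and does not estimate a share of cells.

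**Figure D4:**
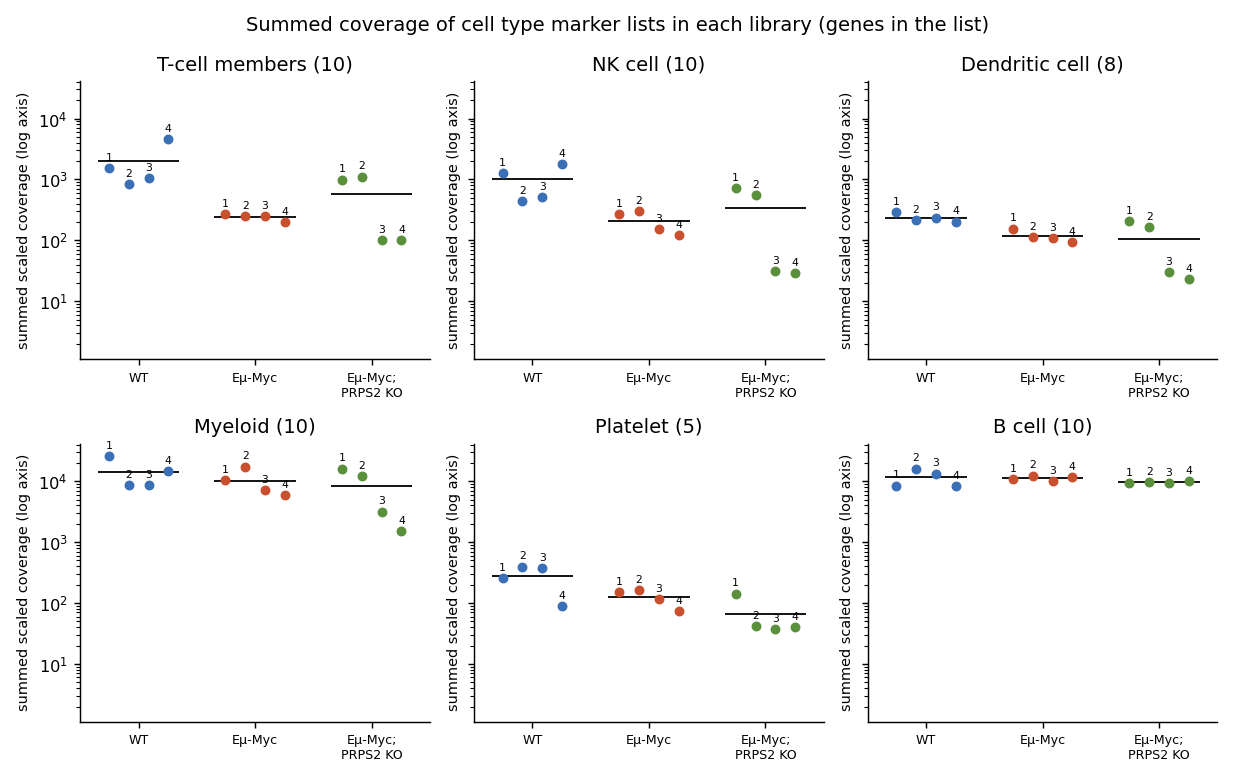
Summed scaled coverage of the marker lists in each library, on a log axis shared by the panels, with points numbered by library within the group and a bar at the group mean. Sums of T-cell, NK-cell, dendritic-cell and myeloid genes are lowest in knockout libraries 3 and 4, while the B-cell sum stays between 8259 and 16150 over all 12 libraries.

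Over the 12 libraries, the profile of each gene was centred on its own mean and set against the median profile of the 10 genes. The median profile was highest in WT library 4, at 3.68 on the log2 scale, and lowest in knockout library 4, at -3.70. Of the 12956 genes ranked, the 10 closest that are not of the set were Skap1, Izumo1r, Tcf7, Ms4a4b, Prkcq, Cd27, Cd5, Cd247, Txk and Klk8. Their root mean square difference over the 12 libraries was 0.15 (Skap1 and Izumo1r) to 0.28 (Klk8) log2 units, where the median over all ranked genes was 2.09. Tcf7, a transcription factor of T cells, stood at 338, 165, 222 and 1121 in WT, at 52.3, 33.8, 48.5 and 37.0 in Eμ-Myc, and at 201, 275, 7.10 and 5.66 in the knockout group. Cd247, the zeta chain that completes the receptor complex, stood at 20.9 to 162 in WT, at 3.27 to 8.01 in Eμ-Myc, and at 33.8, 41.5, 1.11 and 0.777 in the knockout group. Of these 10 genes, 8 are on the 2 other T-cell lists. Of the set itself, Lat, Cd4 and Cd3g lay closer to the median profile than Klk8, and Zap70, with 1.09, was the farthest.

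**Figure D5:**
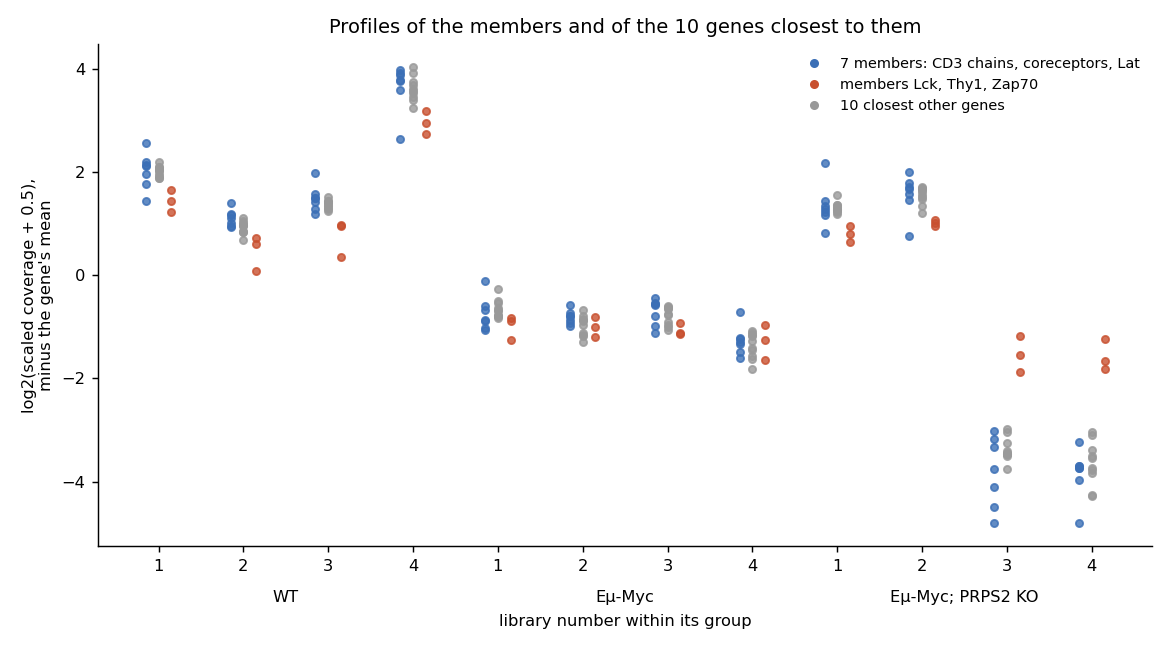
Log2(scaled coverage + 0.5) minus the mean of the gene over the 12 libraries, on the y axis, for the CD3 chains, the coreceptors and Lat, for Lck, Thy1 and Zap70, and for the 10 closest other genes, with 1 point per gene in each library. In knockout libraries 3 and 4, Lck, Thy1 and Zap70 lie above the other members, and the 10 closest other genes lie with the CD3 chains.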

How the data were processed

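Polyadenylated RNA was made into directional libraries, per the labels' protocols, and the genotype given there sorts the 12 libraries into groups. What the authors deposited is a gene-level coverage signal, 1 file for each library, to 1 decimal. Fractional values made up 91.6% of those above 0. The submitters' processing notes name mm10, DESeq and R 4.3.3, with no role for each; the aligner, the counting step and the annotation are not given in the sources used here. Depth in reads is unknown, so no counting interval or floor is given.

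The values are coverage and not counts, so limma 3.58.1 was used in R 4.3.3, as planned for that case. Each library was divided by a factor from unweighted trimmed means of log ratios (30% of ratios and 5% of means trimmed at each end). Genes whose scaled coverage reached 1 in 4 or more of the 8 libraries of a comparison were fitted as log2(scaled coverage + 0.5), by robust empirical Bayes with a trend in the prior variance, two-sided, and Benjamini-Hochberg adjusted over all genes tested, with 0.05 as the threshold. Ratios and figures used Python 3.11.15, pandas 2.3.3, scipy 1.17.1 and matplotlib 3.10.9. The fit was tested on simulated data. Nothing in the labels says that replicates of different groups share an animal or a day, and p-values measure the spread between these libraries.

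The 10 genes and all lists were chosen with earlier results of these data known. In each comparison the text names the 10 genes, the 5 genes of each other T-cell list with the smallest adjusted p (none in the knockout group against Eμ-Myc, where all were at 1), those that went against the calls of their list, and the 10 genes closest in profile, leaving out Gm and Rik symbols; for the other lists it gives sums and counts. Cd247 and Tcf7 were given with values from among the closest genes, and Cd163l1, Sox13, Blk, Xcr1, Clec9a and Zbtb46 were named, after their values were seen.

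The replicate numbers 1 to 4 are shared by the groups. For same-numbered knockout and Eμ-Myc libraries, the correlation over genes of their deviations from the group mean was 0.638, 0.187, 0.243 and 0.596. Each exceeded 0.1, the limit set for taking a number as a pair, and an alternative fit used it. Differently numbered libraries correlated as highly: 0.581 for Eμ-Myc library 1 with knockout library 2, 0.587 for 4 with 3, 0.298 for 3 with 4 and 0.249 for 2 with 1. So these values do not single out the numbers, and no label gives a pairing. Other alternatives were 2 scalings, pseudocounts of 0.1 and 2, dropping the filter or raising it to 10 in each library, a joint fit of the 12 libraries, library quality weights, and leaving out each library. Leaving out knockout libraries 1 and 2, or 3 and 4, ratio tests with no pseudocount, and leaving out each library from the T-cell to B-cell ratio were added after seeing the data.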

Additional observations from a re-analysis of the deposited data

Results flagged for a closer look

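Of 48 sets of 4 values tested (the 10 genes and the ratios, by group), 4 had a highest or lowest library whose gap to the next took up more of the range of the group than the 95% critical value of Dixon's test allows for 4 samples. Chance gives about 1 in 20 such sets. The coverage of Cd3e in WT library 4 was 284.8, where the other WT libraries ran from 39.9 to 79.7. Cd3g in the same library was 481.8, and Cd4 was 149.9. The log2 ratio of Thy1 to Cd3e in Eμ-Myc library 3 was 1.684, where the group mean was 1.41, both with 0.5 added to the coverage of each gene.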

How the results depend on the processing

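In Eμ-Myc against WT all 10 genes were lower under every alternative that tested them, with 10 called in all but 2 settings: 6 with a filter of 10 in every library, which only 6 passed, and 4 with all 12 libraries in 1 fit. Leaving out any library gave 10. Total coverage scaling moved the median of all genes from -0.01 to -0.18 and the share of called genes that were higher from 55.2% to 42%, and 10 of the genes were still lower. In the knockout group against Eμ-Myc, library quality weights gave 8 called genes, all lower, where 28.3% of all genes tested were called lower. Those weights were 0.0817 and 0.129 for knockout libraries 1 and 2, and 3.20 and 7.76 for libraries 3 and 4. Leaving out libraries 1 and 2 gave 8, leaving out 3 and 4 gave 10, and leaving out any 1 library gave 0. Against WT, where 0 were called, all 12 libraries in 1 fit gave 8 (19.9% of all genes tested were called lower), weights gave 10 (41.2%), leaving out knockout libraries 1 and 2 gave 10, and leaving out 1 library gave 0 to 8. Beyond the weights and the libraries left out, the cause of these shifts was not tested.

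The sign of the log2 fold changes of the knockout group against Eμ-Myc, none past the threshold, changed as follows. A pseudocount of 2 gave 0.27 (Cd3e), 0.062 (Cd3g), 0.013 (Cd4), 0.24 (Cd8b1) and 0.13 (Lat). Weights gave -0.28 (Thy1), -0.66 (Lck) and -0.25 (Zap70), and leaving out libraries 1 and 2 gave -0.29, -0.79 and -0.31. Leaving out libraries 3 and 4 gave 2.36 (Cd3d), 2.73 (Cd3e), 2.46 (Cd3g), 1.94 (Cd4), 1.47 (Cd8a), 3.02 (Cd8b1) and 2.38 (Lat). Leaving out 1 library gave ranges of -1.44 to 0.62 (Cd3d), -1.19 to 0.84 (Cd3e), -1.10 to 0.72 (Cd3g), -1.23 to 0.50 (Cd4), -1.34 to 0.14 (Cd8a), -1.57 to 0.76 (Cd8b1) and -0.95 to 0.82 (Lat). The difference in log2 Cd8b1 to Cd8a was 0.21, became -0.28 with a pseudocount of 0.1 and -0.52 with none, and ran from -0.25 to 0.69 with 1 library left out, and that in Cd4 to Cd8a was -0.07 with no pseudocount and ran from -0.04 to 0.37. With no pseudocount no ratio passed the adjustment either, under the same lowest p.

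With the replicate number as a block, 10, 0 and 0 of the genes were called in Eμ-Myc against WT, the knockout group against Eμ-Myc and the knockout group against WT, as without it. Calls over all genes in the last went from 3716 to 1863. Same-numbered libraries of WT and Eμ-Myc (r of 0.225, -0.098, 0.251 and 0.128) and of WT and the knockout group (0.391, -0.408, 0.136 and -0.062) share only a number. The T-cell to B-cell percentage, as a percentage of its WT mean, was 10.2 (Eμ-Myc) and 28.1 (knockout group). It was 9.64 and 26.8 with the CD3 chains and coreceptors only, and 9.97 and 28.3 with Cd79a and Cd79b only, while the mean level in Eμ-Myc went from 2.19% to 1.44% and 1.04%. Single libraries moved more: with the CD3 chains and coreceptors only, knockout libraries 3 and 4 went from 5.0 and 4.65 to 1.28 and 1.16. Leaving out 1 library gave 8.12 to 21.1 and 19.7 to 58.2, the highest of each without WT library 4.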
